A study of Mus musculus with 4 samples.

Results

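The genes described here were the 4 mouse TCF/LEF transcription factor genes (Lef1, Tcf7, Tcf7l1 and Tcf7l2), the gene of their coactivator β-catenin (Ctnnb1) and 2 genes of the complex that degrades β-catenin (Axin2 and Apc). Their chromatin was followed by ATAC-Seq, in which a transposase inserts into accessible DNA and the places where its cuts pile up are called as peaks. The libraries were 2 from control and 2 from Cpt1a-KO bone marrow hematopoietic stem cells (labeled long-term HSCs; the paper calls the sorted cells HSPCs), cryopreserved after sorting. Peaks of the 4 lists that overlapped by at least 1 bp were merged, and regions that touched a gene or the 10 kb on either side of it were assigned to that gene. Of 337776 merged regions on the autosomes and X, 263 lay at the 7 genes. Within a library, each region was ranked by the authors' fold over background at its strongest summit, and the rank is given as a percentile of that library's regions, 100 being the strongest.

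Control mice carried Cpt1a fl/fl and are labeled WT. The KO mice carried the same floxed alleles deleted by Vav1-Cre, which acts throughout the hematopoietic system and not in HSCs alone. Both were adult mice on a C57BL/6 background, and no treatment of the animals is given for these libraries. Whether the 2 libraries of a genotype came from separate animals is not given in the sources used here, so the spread between them may be technical. Cpt1a encodes the carnitine palmitoyltransferase that admits long-chain fatty acids to mitochondrial oxidation. Its locus held 20 and 19 regions in the control libraries and 17 and 15 in the KO libraries. The deleted stretch was not placed among these regions, so their counts do not check the genotype.

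In the canonical Wnt pathway, Wnt ligands bind Frizzled and LRP receptors and stop a cytoplasmic complex built on AXIN and APC from marking β-catenin for degradation. β-Catenin then enters the nucleus and binds TCF/LEF proteins, which sit on DNA and otherwise recruit repressors such as the TLE family. TCF7 and LEF1 are best known for T cell development and also act in hematopoietic stem and progenitor cells. TCF7L1 acts mainly as a repressor, TCF7L2 as an activator or repressor, and AXIN2 is itself a target gene of the pathway and feeds back on it.

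Start sites separated the 4 factors before any comparison of genotypes. Of 12 annotated start windows of 6 of the genes, 250 bases upstream to 50 bases downstream (RefSeq, GRCm38.p6), 9 overlapped a region with a peak in all 4 libraries. Of all 32619 such windows, 47.7% did so. Some of the 12 windows share a region, and their count was not tested against that share. All start windows of Axin2 and Tcf7 lie inside the gene bounds, so the outer edges of these genes are not among the 12. Among the 12 windows Lef1 was the exception. Its outermost start, on the plus strand at chromosome 3 position 131110297, lay in near-closed chromatin, and a start inside Lef1, at 131112791, lay in an open region. The 250 bases before each of these starts are printed, with those before the start of Ctnnb1 as a start open in every library, because their CpG content differed. Capitals mark CG dinucleotides, and all are from RefSeq on the plus strand of mm10. The second stretch lies inside the Lef1 gene.
Lef1 outermost start, chr3:131110047-131110296: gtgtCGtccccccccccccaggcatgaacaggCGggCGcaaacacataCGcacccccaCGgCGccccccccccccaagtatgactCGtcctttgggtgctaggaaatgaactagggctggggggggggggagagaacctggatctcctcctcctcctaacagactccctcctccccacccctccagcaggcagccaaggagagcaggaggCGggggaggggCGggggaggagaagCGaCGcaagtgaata
Lef1 open start, chr3:131112541-131112790: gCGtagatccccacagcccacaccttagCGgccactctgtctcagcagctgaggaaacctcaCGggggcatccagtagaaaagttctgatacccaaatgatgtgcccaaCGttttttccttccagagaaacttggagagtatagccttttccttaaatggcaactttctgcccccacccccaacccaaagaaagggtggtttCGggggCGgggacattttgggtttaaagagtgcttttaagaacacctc
Ctnnb1 start, chr9:120933150-120933399: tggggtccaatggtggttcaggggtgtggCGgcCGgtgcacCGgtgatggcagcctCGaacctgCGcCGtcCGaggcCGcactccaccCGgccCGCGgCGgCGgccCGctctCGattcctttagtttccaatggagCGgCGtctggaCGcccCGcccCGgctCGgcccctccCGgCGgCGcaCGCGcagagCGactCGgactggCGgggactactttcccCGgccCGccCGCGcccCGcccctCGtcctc

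The Ctnnb1 stretch was 74.8% G and C and held 35 CG dinucleotides, against medians of 52.4% and 6.0 over 32619 annotated starts. Lef1 held 11 CG dinucleotides before its outermost start and 6 before its open start. The GC content of these was 66.4% and 50.8%. Thus the open Lef1 start had the base composition of a typical start window and the near-closed one was richer in G and C. The TCF/LEF core motif, searched as CTTTGAT or CTTTGAA on both strands in the 250 bases, was in none of the 12 member windows. It was in 7.5% of all windows, and its absence says only that these letters are not in these windows.

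Marker genes of the sorted cells had peaks at their starts, and a marker start is called open here for any peak, whatever its rank. Annotated starts of 9 of 9 HSC marker genes in the start table used (Slamf1, Kit, Mecom and others) had a peak in every library. Of all annotated start windows, counted by window and not by gene, 47.7% overlapped a region with a peak in all 4 libraries. The median percentiles of the HSC marker starts were 76.6 and 69.9 in the control libraries and 81.0 and 71.1 in the KO libraries. These lay below the median of 93.8 over all windows open in all 4 libraries. Peaks at starts are thus common, and the counts of open marker starts given here do not identify the cells. Some HSC marker starts were weak, and Mecom was at 69.0 and 47.8 in the control libraries against 42.4 and 4.8 in the KO libraries. Among marker genes of T cells, which also use Lef1 and Tcf7, 2, 3, 2 and 3 of 7 starts were open in control 1, control 2, KO 1 and KO 2. Starts of Cd3e, Cd3d, Cd8a and Bcl11b had no peak in any library. The whole T cell list held 77 and 65 regions in the control libraries and 60 and 63 in the KO libraries. The HSC list likewise had more in both controls, 199 and 192 against 184 and 190, as did the myeloid list, 62 and 67 against 57 and 50. The B cell list held 90 and 86 against 98 and 90, and the erythroid list 28 and 28 against 29 and 29. Over all regions the genotypes overlapped, at 172740 and 152879 against 168591 and 163574. How often gene lists of such size separate is not given here, so these counts are not read as shifts in cell types. B cell starts were open at 2 of 3 genes in every library, with none at Ebf1. Of 5 myeloid starts, 4, 5, 5 and 5 were open, and of 4 erythroid starts 2, 1, 1 and 1. The myeloid count includes Elane, at percentiles of 0.1 in control 2, 39.9 in KO 1 and 0.5 in KO 2. The part of other cell types in the results that follow was not tested. Fewer cells of a type with an open region and less opening per cell cannot be told apart in these libraries.

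The 7 genes together had 151 regions in control 1, 128 in control 2, 139 in KO 1 and 134 in KO 2. The KO values lay between those of the controls. Of the 263 regions, 72 (27.4%) had a peak in all 4 libraries, against 23.8% of all regions, and 140 (53.2%) had one in a single library, against 59.3%. The shared regions were wider and stronger, with a median width of 565 bp and a median fold of 5.35, against 102 bp and 2.61 for regions of a single library. The same held over all regions, at 526 bp and 5.86 against 97 bp and 2.67, and merging itself widens a region that more libraries share. A peak seen in 1 library, at these genes as over the whole list, was therefore mostly a short interval of low fold.

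Set beside the whole list, the 7 genes gave few regions that followed genotype. Regions present in both KO libraries and neither control numbered 3 of the 123 with a peak in at least 2 libraries (2.44%), where 3.47% of all such regions did so. Regions present in both controls and neither KO library also numbered 3 (2.44%), against 6.05% of all. Of the 72 member regions with a peak in all libraries, 9 (12.5%) ranked higher in both KO libraries, against 19.0% of all, and 8 (11.1%) ranked lower, against 17.8% of all. All 4 shares were below those of the whole list, and no share was read as particular to these genes. The 9 higher regions were at Tcf7l1 (3), Lef1 (2), Tcf7l2 (2) and Apc (2). The 8 lower ones were at Lef1 (2), Tcf7 (2), Tcf7l2 (2), Tcf7l1 (1) and Apc (1).

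**Figure D1:**
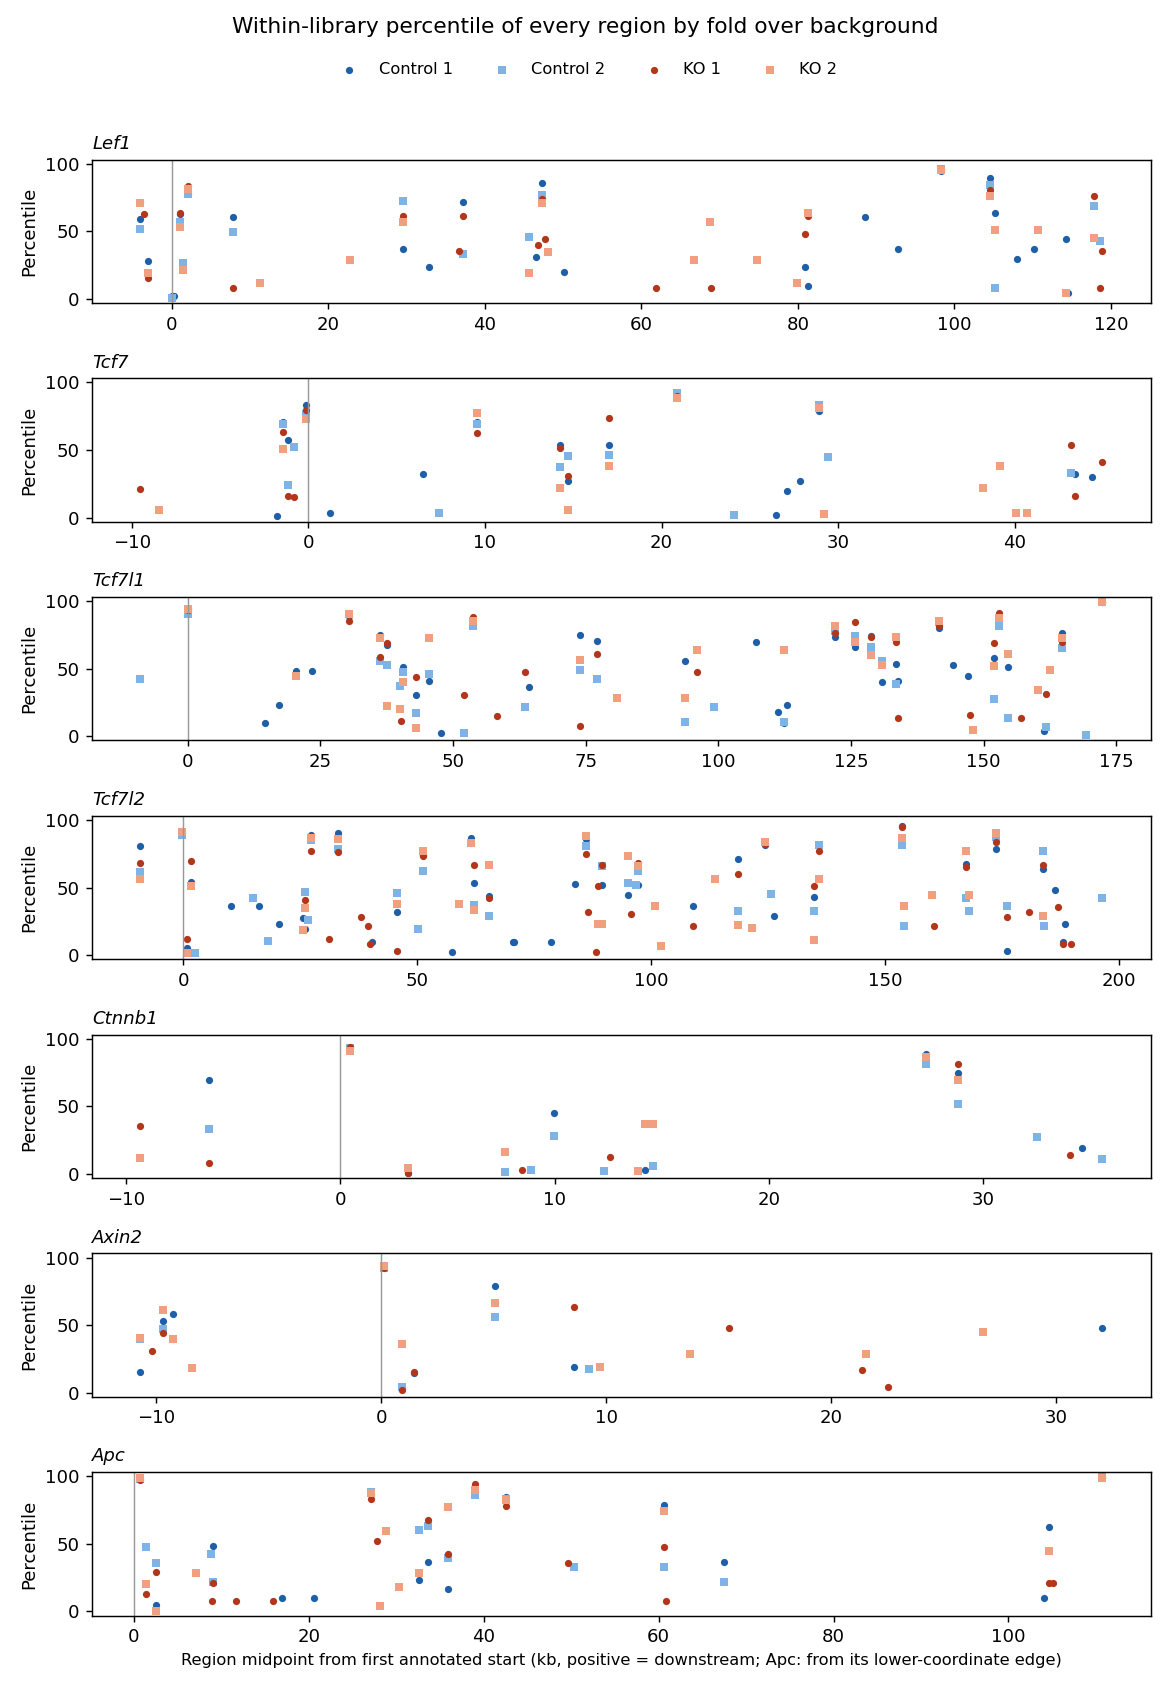
Percentile of every region of the 7 genes (y axis, 0 to 100 within a library) against the distance of its midpoint from the first annotated start in kb (x axis), one point per library with a peak there. First annotated starts of Tcf7l1, Tcf7l2, Ctnnb1 and Axin2 ranked high among all regions in all 4 libraries. Among starts open in all 4 libraries they were ordinary, with 50.5%, 39.8%, 48.0% and 46.2% ranking lower, in that order. The outermost start of Lef1, at 0 kb, had weak points from the controls alone.

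Lef1 encodes a high-mobility-group factor that bends DNA at its target sites. The gene lies on chromosome 3 from 131110297 to 131224357, and its 43 merged regions were held by 25 and 16 in the control libraries and 21 and 22 in the KO libraries. The genotypes overlapped (difference in means 1.0, exact two-sided permutation p = 1.0). Of these regions, 9 had a peak in all 4 libraries.

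The strongest Lef1 region was not at a start but deep in the gene, 98.32 kb downstream (131207944 to 131209281). Its fold was 13.75 and 15.79 in the control libraries and 15.52 and 13.76 in the KO libraries, so each genotype had a higher and a lower library and the groups overlapped. Its percentiles ran from 94.3 to 95.8, a narrower range than at any of the other shared Lef1 regions.

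At the open start (131111964 to 131112806) the fold was 6.29 and 6.97 in the control libraries and 7.87 and 6.73 in the KO libraries. On that scale the genotypes overlapped. As percentiles, 77.7 and 77.5 stood against 83.9 and 81.4, and both KO libraries lay above both controls by a mean of 5.0 percentile points. Among all starts open in the 4 libraries, 20.6% had a lower median percentile, so this Lef1 start ranked in the lower part of open starts. The outermost start (131110195 to 131110358) had a peak in both controls and in neither KO library. That peak was among the weakest of its lists, at percentiles of 1.9 and 0.6 and a −log10 q of 0.77 and 0.369, and no library kept it at a −log10 q of at least 5. A further annotated start, at 131156294, overlapped no region.

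Away from the starts, Lef1 regions moved in both directions between genotypes. A region at -4.04 kb, upstream of the outermost start (131105955 to 131106557), inside the long noncoding RNA gene Gm36603, was at percentiles 58.9 and 52.0 in the control libraries and 71.7 and 71.1 in the KO libraries. Its fold was 3.78 and 3.69 against 5.1 and 4.88. The 2 groups did not overlap on either scale and the KO mean was 16.0 percentile points higher. Its −log10 q was 4.99 and 4.57 in the control libraries and 9.56 and 6.37 in the KO libraries, so that at a minimum of 5, or among the 100000 strongest summits of each library, it counted as present only in KO.

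Inside the gene, 2 regions ranked lower in both KO libraries. One, 47.27 kb downstream of the outermost start (131157251 to 131157883), had a fold of 8.54 and 6.85 in the control libraries and 5.53 and 4.8 in the KO libraries. Its percentiles were 85.4 and 77.2 against 74.0 and 70.7, a mean difference of -9.0. The other, at 104.61 kb (131214661 to 131215152), had a fold of 10.52 and 8.86 against 6.88 and 5.56. Its percentiles were 89.7 and 84.3 against 80.6 and 75.8, a mean difference of -8.8. At both, every KO value was below every control value on both scales.

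The remaining Lef1 regions named for the size of their difference overlapped between genotypes. At 29.59 kb (131139567 to 131140206) the percentiles were 36.7 and 72.4 in the control libraries and 61.3 and 56.6 in the KO libraries. At 117.9 kb, downstream of the gene (131228017 to 131228368), they were 69.8 and 68.7 against 76.1 and 44.7. In each case 1 genotype's own libraries spanned the other's.

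**Figure D2:**
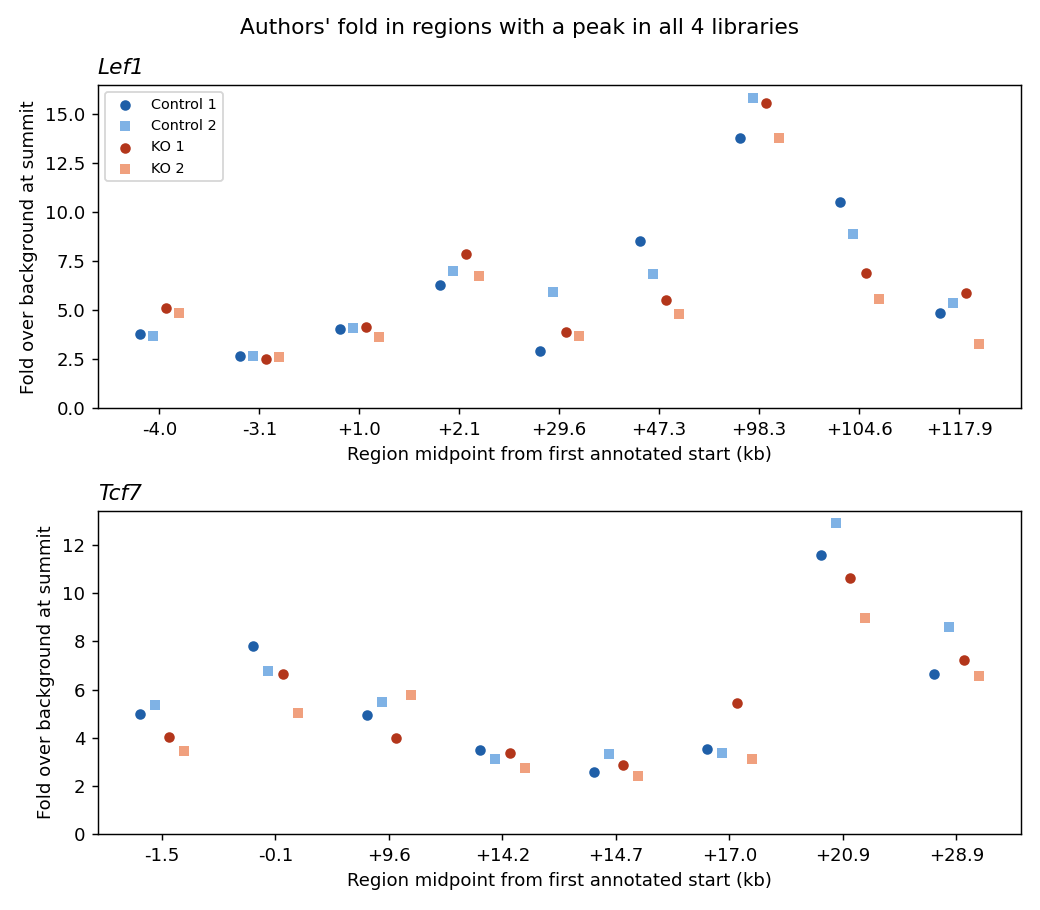
The authors' fold over background (y axis, linear from 0) in each library at the 9 Lef1 and 8 Tcf7 regions with a peak in all 4 libraries, ordered by kb from the first annotated start (x axis). At Lef1 the KO points lie above both controls at -4.0 kb and below both at -3.1 kb (narrowly), +47.3 kb and +104.6 kb, and at Tcf7 they lie below both controls at -1.5 and +20.9 kb and at the start.

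Tcf7 encodes TCF-1, the factor needed for early T lineage cells and for memory and stem-like T cells. The gene lies on the minus strand of chromosome 11 (52246527 to 52283383), and of its 30 merged regions the controls held 17 and 14 and the KO libraries 14 and 14 (difference in means -1.5, exact two-sided permutation p = 1.0). No Tcf7 region was present in 1 genotype alone by both of its libraries.

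The Tcf7 start lay in an open region (52282655 to 52283672) that covered both start windows in the table used. Its percentiles were 83.1 and 76.6 in the control libraries and 79.6 and 72.8 in the KO libraries, so the genotypes overlapped in rank. The fold was 7.79 and 6.78 against 6.66 and 5.01, with both KO values the lower ones. Of all open starts, 18.8% ranked lower.

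Of the 8 shared Tcf7 regions, 2 ranked lower in both KO libraries and none ranked higher. The strongest Tcf7 region, 20.86 kb into the gene (52261860 to 52262452), had a fold of 11.56 and 12.89 in the control libraries and 10.62 and 8.98 in the KO libraries. Its percentiles were 91.5 and 92.6 against 90.2 and 88.3, a mean difference of only -2.8 points. The other, at -1.46 kb, upstream of the start (52284384 to 52284569), had a fold of 4.99 and 5.37 against 4.05 and 3.44. Its percentiles were 70.7 and 69.2 against 63.2 and 51.1, a mean difference of -12.8, and among the 100000 strongest summits it was present only in control. At a −log10 q of at least 5 it was present in both controls and in KO 1.

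The other Tcf7 regions did not separate the genotypes. The one with the largest difference in rank, at 14.73 kb (52268050 to 52268511), was at 27.2 and 45.4 in the control libraries and 30.7 and 5.8 in the KO libraries, where KO 2 alone was low. At 14.24 kb (52268599 to 52268943) the values were 53.6 and 37.6 against 51.9 and 21.8, again with KO 2 the lowest. At 17.04 kb (52265578 to 52266373) they were 53.8 and 46.0 against 73.7 and 38.1, with the KO libraries on either side of the controls. The regions at 9.56 kb and 28.93 kb differed by means of 0.1 and 0.0.

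Tcf7l1 (chromosome 6, 72626371 to 72789045, minus strand) encodes TCF7L1, a repressor of Wnt targets in stem cells. It had 36 and 30 regions in the control libraries and 27 and 29 in the KO libraries. All KO values were below all control values, with a difference in means of -5.0, and the exact two-sided permutation p was 0.333, the smallest that 2 libraries against 2 can give. The share of all genes whose counts separate in this way is not given here, so the separation is not read as particular to Tcf7l1. With lists cut to equal length the difference was -0.5, and with the 100000 strongest summits it was 1.5, in the opposite direction. Its start (72788348 to 72789741) was at percentiles 95.0 and 90.9 in the control libraries and 93.2 and 94.6 in the KO libraries.

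The strongest region assigned to Tcf7l1 was the start of the neighboring gene Tgoln1 (72616129 to 72617185), at 99.5 and 99.3 against 99.4 and 99.2. Within Tcf7l1, a region 133.46 kb downstream of the start (72655405 to 72655759), which also lies in the noncoding Gm31391, was at percentiles 53.4 and 38.6 in the control libraries and 69.6 and 73.2 in the KO libraries. Its groups did not overlap, its difference was 25.4, and like the Lef1 upstream region it was present only in KO at a −log10 q of at least 5 and among the 100000 strongest summits. This region was picked out after its values were seen. One region, 96.05 kb into the gene (72692934 to 72693054), was present only in KO among all peaks, at percentiles 47.9 and 63.8, and fell under that q limit in every library.

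Tcf7l2 (chromosome 19, 55741797 to 55933659, plus strand) had the most regions of the 7 genes, 40 and 35 in the control libraries and 38 and 34 in the KO libraries (difference in means -1.5, exact two-sided permutation p = 0.667). It is also the longest of the 7, at 191.9 kb. Per 100 kb of gene and flanks it had 33.0 merged regions, within the range of 24.6 (Apc) to 52.8 (Tcf7). It had 2 open starts with equal median percentiles of 90.9. At the upstream one (55741196 to 55742001) the percentiles were 90.3 and 89.0 in the control libraries and 91.7 and 91.5 in the KO libraries. They did not overlap, but the mean difference was 2.0 points and the fold, 10.87 and 10.81 against 11.61 and 10.7, did overlap. At the start 153.67 kb downstream (55895179 to 55895786) they were 95.3 and 81.7 against 95.1 and 86.7, with replicate 1 above replicate 2 in each genotype. A region at 88.59 kb (55830356 to 55830452) was present only in KO, at 51.1 and 23.4, with a −log10 q of 2.47 and 1.1.

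Ctnnb1 (chromosome 9, 120933400 to 120960507, plus strand) had 8 and 12 regions in the control libraries and 9 and 9 in the KO libraries (difference in means -1.0, exact two-sided permutation p = 1.0). At its start (120933160 to 120934548) the fold was 12.76 and 13.52 in the control libraries and 13.63 and 10.38 in the KO libraries. The percentiles ran from 91.0 to 94.2 and the genotypes overlapped. One weak region at -9.34 kb (120923948 to 120924176), was present only in KO at percentiles of 35.7 and 11.6. Another, at 9.97 kb (120943306 to 120943438), was present only in control at 45.3 and 28.2. No peak in either of these weak regions reached a −log10 q of 5.

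Axin2 (chromosome 11, 108917828 to 108950783, plus strand) had 9 and 6 regions in the control libraries and 11 and 11 in the KO libraries. Both KO counts were above both controls, by 3.5 in the means (exact two-sided permutation p = 0.333), but at a −log10 q of at least 5, and among the 100000 strongest summits, each library held 2. The regions in which the counts differed were therefore below that limit. As at Tcf7l1, no share of all genes stands beside this separation, and it is not read as particular to Axin2. Its annotated start (108920077 to 108920899) was at percentiles 94.3 and 91.9 in the control libraries and 92.1 and 93.7 in the KO libraries, which overlapped. This start lies inside the gene bounds, and no region overlapped the upstream edge of the gene at 108917828. Among all peaks no Axin2 region separated the genotypes by presence or by rank, while at that q limit 1 of its 2 regions ranked lower in both KO libraries.

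Apc (chromosome 18, 34220297 to 34322190), the scaffold that hands β-catenin to degradation, had 16 and 15 regions in the control libraries and 19 and 15 in the KO libraries (difference in means 1.5, exact two-sided permutation p = 1.0). The table used gave no start for Apc, so its regions are placed from its lower-coordinate edge. The region at that edge (34220544 to 34221547), which also lies in Gm10548, was at percentiles 98.6 and 98.1 in the control libraries and 97.6 and 98.8 in the KO libraries. The strongest region of its window, inside Srp19 (34330519 to 34331554), was at 98.9 and 99.3 against 99.3 and 98.9. Both were near the top of every list and overlapped. A region 67.46 kb from the edge (34287694 to 34287829) was present only in control, at 36.7 and 21.9. The region of largest difference in rank among the 7 genes, picked out after its values were seen, lay at 35.94 kb (34256135 to 34256334), where 17.0 and 39.2 in the controls stood against 42.5 and 77.4.

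**Figure D3:**
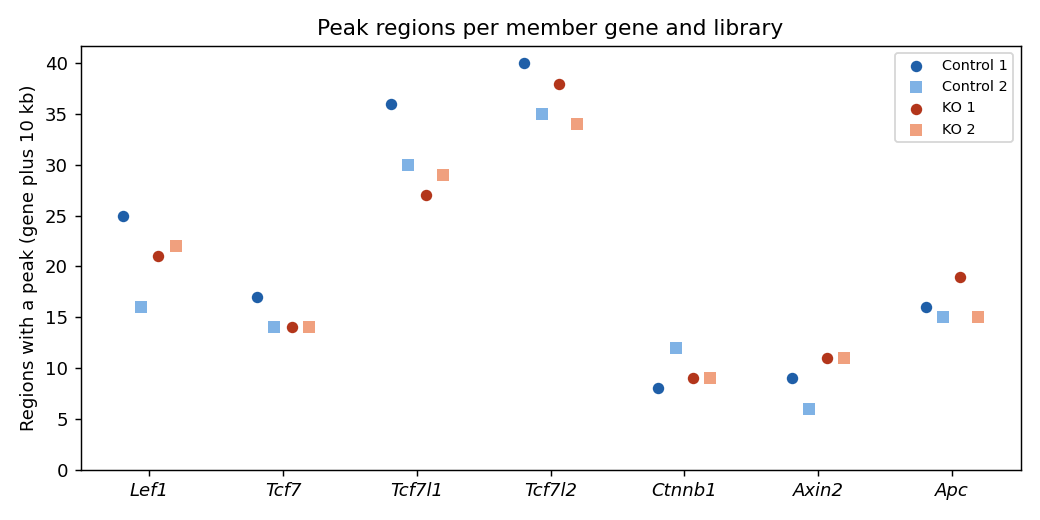
Number of merged regions with a peak (y axis) at each gene plus 10 kb (x axis), one point per library. The KO points lie below both controls at Tcf7l1, above both at Axin2, and overlap or meet the control range at the other 5 genes. The share of all genes that separate in this way is not given.

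The difference in percentile between KO and control means had a median of 0.03 over the 72 regions and of 0.06 over all 80271 shared regions. It ranged from -29.8 to 31.9. Its median size was 4.8 points, close to the 4.85 that the spread between the 2 libraries of a genotype gives for a difference of 2 means. Which direction prevailed depended on how weak peaks were treated and on the lengths of the lists. With lists of equal length 15 of 69 member regions ranked higher and 5 lower, where 27.7% and 12.0% of all regions did. At a −log10 q of at least 5 none of 35 ranked higher and 12 ranked lower, where 7.92% and 33.5% of all did. The median difference then was -6.36 for the members and -3.92 for all regions. With the 100000 strongest summits 5 of 35 ranked each way, where 21.5% of all ranked higher and 17.1% lower. When each KO library was set against the control library of its number, 15 of 72 ranked higher and 18 lower, against 27.3% and 26.0% of all.

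By presence, too, the counts depended on the list. At a −log10 q of at least 5, 2 of 53 member regions were only in KO, the Lef1 upstream region and the Tcf7l1 region at 133.46 kb, where 0.807% of all regions were. None of the 53 was only in control, where 7.02% of all were. With the 100000 strongest summits the same pair of regions was only in KO (2 of 46, against 3.11% of all) and 1 was only in control (against 2.75%), the region upstream of Tcf7. With lists of equal length 4 of 113 were present only in KO and another 4 only in control, against 3.9% and 4.75% of all.

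**Figure D4:**
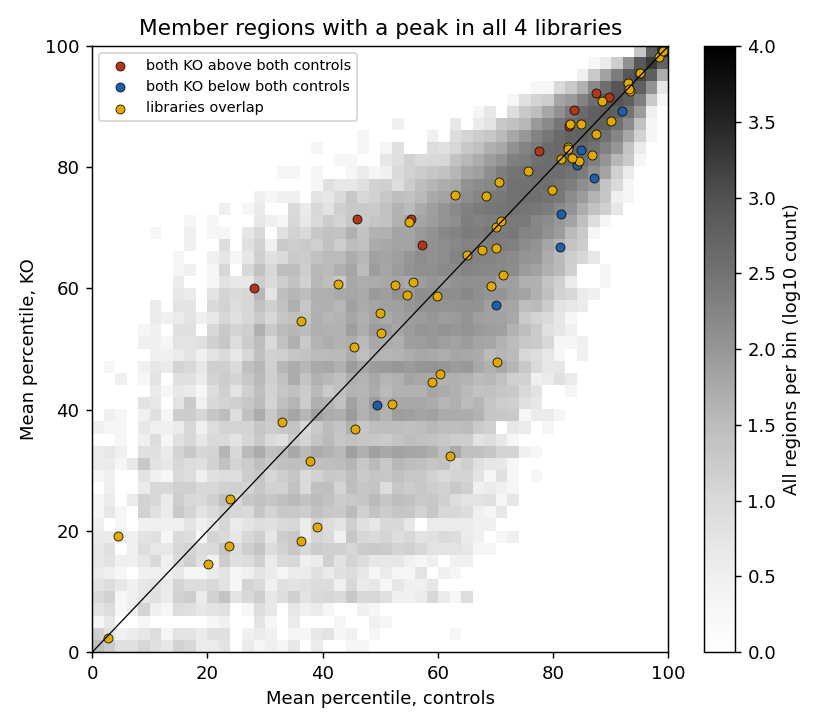
Mean percentile in the KO libraries (y axis) against that in the controls (x axis) for the 72 member regions with a peak in all 4 libraries, over the density of all 80271 such regions (gray, log10 count per bin). The 9 regions ranked higher and the 8 ranked lower in both KO libraries lie above and below the diagonal, the others around it.

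Other genes of the Wnt pathway, 54 in a list that leaves out the 7, held 1051 merged regions, 464 of them in at least 2 libraries. Regions present only in KO numbered 13 (2.8%, against 3.47% of all regions) and lay at 12 genes. These were the receptor genes Fzd10 and Ror2, the receptor turnover genes Znrf3, Lgr5 and Lgr6, the kinase and ligase genes Csnk1d and Btrc, the corepressor genes Tle3 and Tle4, and the inhibitor genes Dkk3, Sfrp1 and Nkd2. Regions present only in control numbered 28 (6.03%, against 6.05% of all) and lay at 20 genes. Of these, 3 were receptor genes (Lrp5, Lrp6 and Ryk), 2 receptor turnover genes (Rnf43 and Lgr6), 6 cytoplasmic (Dvl2, Axin1, Gsk3b, Csnk1a1, Csnk1d and Btrc), 7 nuclear (Bcl9, Bcl9l, Pygo1, Tle4, Tle5, Ctnnbip1 and Ctbp1) and 2 inhibitor genes (Sfrp1 and Nkd1). At Lgr6, Csnk1d, Btrc, Tle4 and Sfrp1 there were regions of both kinds.

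Of the 275 pathway regions shared by all libraries, 54 (19.6%) ranked higher in both KO libraries and 39 (14.2%) lower, where 19.0% and 17.8% of all regions did. Among receptors 8 of 52 ranked higher and 10 lower, and among receptor turnover genes 10 of 47 ranked higher and 11 lower. Of the secretion genes' 7 regions, 0 ranked higher and 1 lower. Among cytoplasmic transducers and the destruction complex 11 of 59 ranked higher and 6 lower. Among nuclear partners and repressors, which include the TLE corepressors and the β-catenin adaptors BCL9 and PYGO, the counts were 21 of 74 (28.4%) and 7 (9.46%). Among feedback inhibitors and targets 4 of 36 ranked each way. The groups were not tested against each other or against all regions.

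Genes whose regions were spread over the 4 libraries most like those of Lef1 and Tcf7 were sought among 10840 genes with at least 10 merged regions. Likeness was the distance between the shares of a gene's regions held by each library. Nearest to Lef1 were Inpp4a, Tmem108 and Peak1, at distances of 0.0259, 0.032 and 0.0327. Nearest to Tcf7 were Nedd4l, Cd44 and Kansl1, at 0.0168, 0.0202 and 0.0202. Lef1 had 58.1% and 37.2% of its regions in the control libraries and 48.8% and 51.2% in the KO libraries, and Inpp4a 58.7% and 39.1% against 50.0% and 50.0%. These distances rest on 4 libraries, and the shares were not adjusted for the lengths of the 4 lists.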

How the data were processed

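ATAC-Seq peak lists of 4 libraries of sorted HSCs were analyzed, 2 control and 2 Cpt1a-KO, each called on its own library. The submitters' processing notes name Bowtie2, MACS2 and mm10. The lists the authors deposited hold a row per summit with a score, a fold (the ratio of signal to the background of the same library), a −log10 p and a −log10 q. The lowest −log10 p was 2.0. The lists hold no reads, so depth and its precision are unknown and the study's read-based test was not possible. In 253 to 492 rows per list the last column held a chromosome position in place of an offset. That position was taken as the summit, which set the order of tied rows when lists were cut.

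Intervals on the autosomes and X were merged at 1 bp overlap in Python (3.11.15; numpy 2.4.6, pandas 2.3.3, matplotlib 3.10.9). This gave 172740 and 152879 regions in the control libraries and 168591 and 163574 in the KO libraries. Genes, strands and start windows are RefSeq (GRCm38.p6, the mm10 build). A region followed genotype if the 2 libraries of one group had a peak there and those of the other had none, or if the 2 ranks of one group lay beyond both of the other. With 2 libraries against 2 the smallest exact two-sided permutation p is 0.333, so no difference could pass 0.05 by that test. Named regions were those at starts, the strongest per gene, those of 1 genotype, and for Lef1 and Tcf7 the 3 of largest difference in rank in each direction, plus 2 named after their values were seen. Start windows cover 6 of the 7 genes. The genes, lists and alternatives were chosen with earlier results of these data known. The counting code was tested on simulated data. Alternatives were a −log10 q of at least 5, lists of equal length (240881 summits), the 100000 strongest summits, a covered share of at least 0.5, flanks of 5 kb and none, a replicate block and leaving out each library.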

Additional observations from a re-analysis of the deposited data

How the results depend on the processing

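The exact permutation test could not pass 0.05 with 2 libraries against 2, the lists give no reads for a count model, and with 1 library left in a genotype a region counts for it on that library alone. Counts of member regions only in KO (3) stayed within 1.5 times with every other list or flank. Those only in control (3) became 0 at a −log10 q of at least 5, 1 with the 100000 strongest summits and 13 when a covered share of at least 0.5 was required. Regions ranked higher (9) became 0, 5 and 15 at that q limit, with the strongest summits and with lists of equal length, and regions ranked lower (8) became 5 with the strongest summits and 5 with equal lists. The median difference became -6.36 at the q limit. In the pathway list, regions only in KO and only in control (13 and 28) became 2 and 8 at the q limit and 3 and 3 with the strongest summits. The cause was not tested, beyond the fewer regions each stricter list holds. No share over all regions stands beside the counts at the covered share or those of the pathway list. These counts are not read as particular to the genes.

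Leaving out control 1, control 2, KO 1 or KO 2, regions only in control numbered 26, 47, 11 and 12, those ranked higher 22, 19, 26 and 24, and those ranked lower 20, 28, 28 and 25. Regions only in KO numbered 7, 4, 38 and 41. Shares over all regions with a library left out are not given here, so these counts are not read as particular to these genes. The median difference ranged from -1.21 to 0.64, and the summed difference in regions per gene from -14.5 to 8.5. With the replicate block, comparing libraries of the same number, 15 member regions ranked higher and 18 lower, where 27.3% and 26.0% of all regions did, and presence gave 3 and 3 by construction. The deviations of same-numbered libraries from their group means had a correlation of 0.01, a single value since the deviations of a pair mirror each other, and the labels name nothing that a number marks, so the libraries were not treated as paired. Over all settings, 46 values for the members together and the pathway list stayed within the spread between libraries (for counts, within 1.5 times) and 30 did not, and for single genes 57 and 13.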
